A study of Homo sapiens with 32 samples.

Results

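The replication-dependent histone genes are 52 of the 60107 genes in the count table, chosen by their symbols (HIST1 and HIST2 names in older annotation), and all 52 have a row. They comprise 5 linker histone (H1) genes, 12 H2A, 14 H2B, 10 H3 and 11 H4 genes, of which 50 lie on chromosome 6 and 2, H2AC20 and H2BC21, on chromosome 1. Polyadenylated RNA was read from its 3′ end with the QuantSeq method in 32 libraries of HEK293T, a human embryonic kidney line, and U2OS, a human osteosarcoma line. The study followed gene expression after genotoxic stress from camptothecin (CPT), which traps TOP1 on DNA, or from loss of the kinase ATM. Levels are given in CPM (counts per 1000000 counts on genes), n is 4 libraries per set, and errors of levels are SD unless stated.

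Replication-dependent histone genes are transcribed in S phase, when new DNA is packaged, and their mRNAs end in a short stem-loop bound by the protein SLBP rather than in a poly(A) tail. Some of these genes can also give a polyadenylated transcript from a signal downstream of the stem-loop, a form described in cells that leave the cycle or differentiate. The linker histones of the H1 family bind DNA between nucleosomes, while H2A, H2B, H3 and H4 form the nucleosome core. An oligo-dT primed method sees the polyadenylated forms, and it can also start at A-rich stretches inside RNA, so levels here are not total histone mRNA. Bulk libraries also cannot tell fewer cells in S phase from less RNA per cell.

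The comparisons use 8 sets of 4 libraries, named by the number in each library's title. U2OS cells received CPT (26 to 29) or DMSO (30 to 33), and HEK293T cells the ATM inhibitor (18 to 21) or DMSO (22 to 25), for 24 h with a recovery of 48 h. GEO labels 18 to 21 as HEK293T ATM KO, and they are taken as inhibitor-treated cells because the study describes ATM loss in HEK293T RNAseq by the inhibitor and not by knockout. Even libraries 10 to 16 are labelled U2OS ATM KO, which comes from picked CRISPR clones, and odd libraries 11, 13 and 15 U2OS WT, both grown for 72 h, while library 17 is labelled HEK293T DMSO. Even libraries 2 to 8 are labelled HEK293T CPT, odd libraries 3, 5 and 7 HEK293T DMSO, and library 1 U2OS WT.

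The profiles of 14 of the 16 libraries numbered 1 to 17 were closer to the cell line that their label does not name, against 0 of the 16 libraries numbered 18 to 33. Libraries 1 to 8 were closest to U2OS and 10 to 17 to HEK293T. The summed level of 7 U2OS marker genes was 65.2 to 277 CPM in the 16 libraries closer to HEK293T and 2270 to 4950 CPM in the 16 closer to U2OS. The sums of the 5 HEK293T markers overlapped, at 311 to 561 and 368 to 772 CPM, so that list did not tell the lines apart. ATM RNA was at 28.8 to 39.8 CPM in the libraries labelled U2OS ATM KO and 21.2 to 36.3 CPM in odd libraries 11 to 17, and at 34.2 to 61.7 CPM in even libraries 2 to 8 and 53.4 to 68.4 CPM in odd libraries 1 to 7. Both pairs of ranges overlap, and a knockout need not lower the RNA. Even and odd libraries within 10 to 17 and within 1 to 8 are therefore compared as numbered sets, and no direction for a treatment or genotype is drawn from them. Each library held 1232674 to 6362433 counts on genes, and 3 counts, taken as the least detected, equal 2.43 to 0.472 CPM.

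Of the 52 histone genes, 6 had no count in any library, 25 had fewer than 32 counts over all 32 libraries, and 17 reached a mean of 10 CPM in at least 1 set. H4C3 (H4) averaged 1039 CPM over all libraries and H1-2 (H1) 432 CPM. They were followed by H1-4 at 32.8, H2AC6 at 31.8, H2BC5 at 27.5 and H2BC11 at 21.1 CPM. The highest H3 genes were H3C10 at 6.20 and H3C4 at 1.65 CPM. H4C3 alone made up 73.3% to 80.6% of the summed histone CPM in HEK293T DMSO libraries and 26.7% ± 3.4 in U2OS DMSO libraries. Histone genes of 1 family have nearly the same coding sequence, and how reads that match several copies were treated is not given in the sources used here, so counts of close copies are uncertain.

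The annotated 3′ ends are shown because the method reads polyadenylated RNA and the genes differ in whether an annotated transcript can give it. Of the 52 genes, 14 have a transcript in GENCODE 29 (build GRCh38) with AATAAA or ATTAAA in its last 40 bases, searched on the transcript strand, here called a signal. They are 2 H2A, 7 H2B, 3 H3 and 2 H4 genes, with no H1 gene among them. Transcripts of 21 genes include the histone stem-loop of 16 bases, and 13 genes have both. The annotated transcripts of 27 genes end at the stop codon, so a missing signal says only that no annotated transcript holds it. In H2BC21 on chromosome 1, the stem-loop (chr1:149886183-149886208, minus strand) is followed by 1729 bases before the transcript ends at a signal (chr1:149884459-149884488). In H2AC6 the stem-loop (chr6:26124664-26124689, plus strand) and the signal (chr6:26139084-26139113) lie in 1 transcript with 1128 spliced bases after the stem-loop. In H3C10 they lie at chr6:27810511-27810536 and chr6:27811271-27811300 on the plus strand, and for H2BC11 a signal is annotated at chr6:27125897-27125926 on the minus strand. H4C3 had the highest mean CPM over all libraries, though H1-2 was above it in U2OS DMSO libraries (means 376 against 239 CPM). H4C3 has no annotated signal, and 21 of the last 30 bases of its transcript (chr6:26104281-26104310, plus strand) are A. Capitals mark the stem-loop, the signal or, for H4C3, each A.
H2BC21 stem-loop: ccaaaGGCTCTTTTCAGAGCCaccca
H2BC21 signal: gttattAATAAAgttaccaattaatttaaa
H2AC6 stem-loop: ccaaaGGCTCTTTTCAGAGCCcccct
H2AC6 signal: aggtAATAAAaggtaatgcaaagggagagg
H3C10 stem-loop: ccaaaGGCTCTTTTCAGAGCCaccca
H3C10 signal: atgactaAATAAAatctgtataatccccac
H2BC11 signal: gaataaatgAATAAAgtaatattcctctgc
H4C3 transcript end: tgAgAActtcAAAAAAcAAAAAcAAAAAAA

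The densest 20-base window of the H4C3 transcript holds 18 A, against a median of 10 over the other 51 genes. H2BC8, a rarely counted gene, has a window with 20 A, and H2BC15 and H4C9 have one with 15. The windows were searched over whole annotated transcripts, and their relation to the levels was not tested.

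After CPT, U2OS cells held less histone RNA. The summed CPM of the 52 genes was 224 to 240 in the CPT libraries and 744 to 1031 in the DMSO libraries, which is 3.85-fold lower on average with no overlap. Folds of sums, here and below, are of CPM without the normalization that the log2 differences include. Of 24 genes that passed the count filter, 14 fell, 0 rose and 10 did not pass the threshold of an absolute log2 difference over 1 and an adjusted p under 0.05 in edgeR's quasi-likelihood test. Their median log2 difference was -1.67, or -1.46 with H3C1 and H4C2, which had no count after CPT, placed at their limits of detection, and 0.01 over all 19080 genes tested. Of all genes, 5.5% were called lower and 7.97% higher.

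All 3 tested linker histone genes fell in U2OS cells. H1-2 was at 111, 101, 91.8 and 94.2 CPM after CPT and at 383, 409, 404 and 308 CPM in DMSO. The sets lie far apart, and the log2 difference was -1.74 ± 0.12 (SE; edgeR adjusted p = 2.58e-13). H1-1 was at 2.06, 0.930, 0.692 and 0.936 CPM after CPT, 15 counts in all, and at 39.5, 34.4, 46.9 and 29.3 CPM in DMSO. Its log2 difference of -4.78 ± 0.27 was the largest among the genes over 10 CPM in either set (edgeR adjusted p = 3.59e-15). H1-4 averaged 2.35 ± 0.77 CPM against 16.01 ± 5.42, a log2 difference of -2.54 ± 0.30.

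Among core histones, H4C3 moved most in absolute level. It was at 21.8, 24.8, 34.3 and 39.3 CPM after CPT and at 228, 320, 203 and 205 CPM in DMSO. Every DMSO library was above every CPT library, with a log2 difference of -2.82 ± 0.16 (SE; edgeR adjusted p = 3.63e-15). H4C8, the other H4 gene over 10 CPM, averaged 1.22 ± 0.89 against 13.6 ± 6.7 CPM (log2 difference -3.29 ± 0.39), and DMSO library 31, at 23.7 CPM, stood above the other 3. In the H2A family, H2AC20 averaged 2.17 ± 0.94 against 10.4 ± 2.2 CPM (log2 difference -2.08 ± 0.30), and H2AC6 was at 18.5, 19.5, 20.1 and 16.2 against 63.3, 66.1, 63.3 and 52.4 CPM. The H2AC6 sets did not overlap, and its log2 difference was -1.54 ± 0.14 (SE; edgeR adjusted p = 1.3e-10).

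Of 7 tested H2B genes, 4 fell. H2BC7 (-3.05 ± 0.61) and H2BC12 (-1.89 ± 0.44) did so from means of about 4 CPM in DMSO. H2BC11 was at 11.5 ± 2.3 after CPT and 27.8 ± 2.9 CPM in DMSO (log2 difference -1.09 ± 0.17), and H2BC5 at 13.9 ± 2.0 and 31.7 ± 1.4 CPM (-1.02 ± 0.16). H2BC11 and H2BC5 sit near the cutoff of 1: H2BC11 dropped to -0.99 without library 27, and H2BC5 lay between -0.99 and -0.96 without library 26, 28, 32 or 33. H2BC21 was at 18.8, 18.6, 21.8 and 21.5 against 32.7, 28.2, 24.0 and 23.1 CPM. Those values do not overlap, yet the log2 difference after normalization was -0.24 ± 0.15 and did not pass the test (edgeR adjusted p = 0.232). H2AC11 (0.31 ± 0.25), H2BC15 (0.29 ± 0.27) and H2BC4 (-0.26 ± 0.26) did not pass either.

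The 24 tested genes were also counted by their annotated 3′ end, with no test of the difference. Of 9 with a signal, 4 fell and 5 did not pass, with a median log2 difference of -0.54. Of 15 without one, 10 fell and 5 did not pass, with a median of -2.30. The median of -2.30 uses the fitted values of H3C1 and H4C2, which had no count after CPT, and not their limits of detection. Among the genes at 10 CPM or more in either set, 4 of 5 with a signal and 5 of 5 without one fell. The summed CPM of genes with a signal was 2.12-fold lower after CPT, and that of genes without one 4.92-fold lower. Genes with a signal made up 19.9% to 22.3% of the summed histone CPM in DMSO libraries and 36.3% to 41.3% after CPT, ranges that do not overlap, and no test was run on this share. The share of reads outside annotated genes overlapped, at 30.9% to 39.9% and 33.6% to 38.7%. The U2OS markers summed to 4122 to 4711 CPM after CPT and 2270 to 2789 CPM in DMSO, with 3 of 7 called higher, and their part in the histone differences was not tested.

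**Figure D1:**
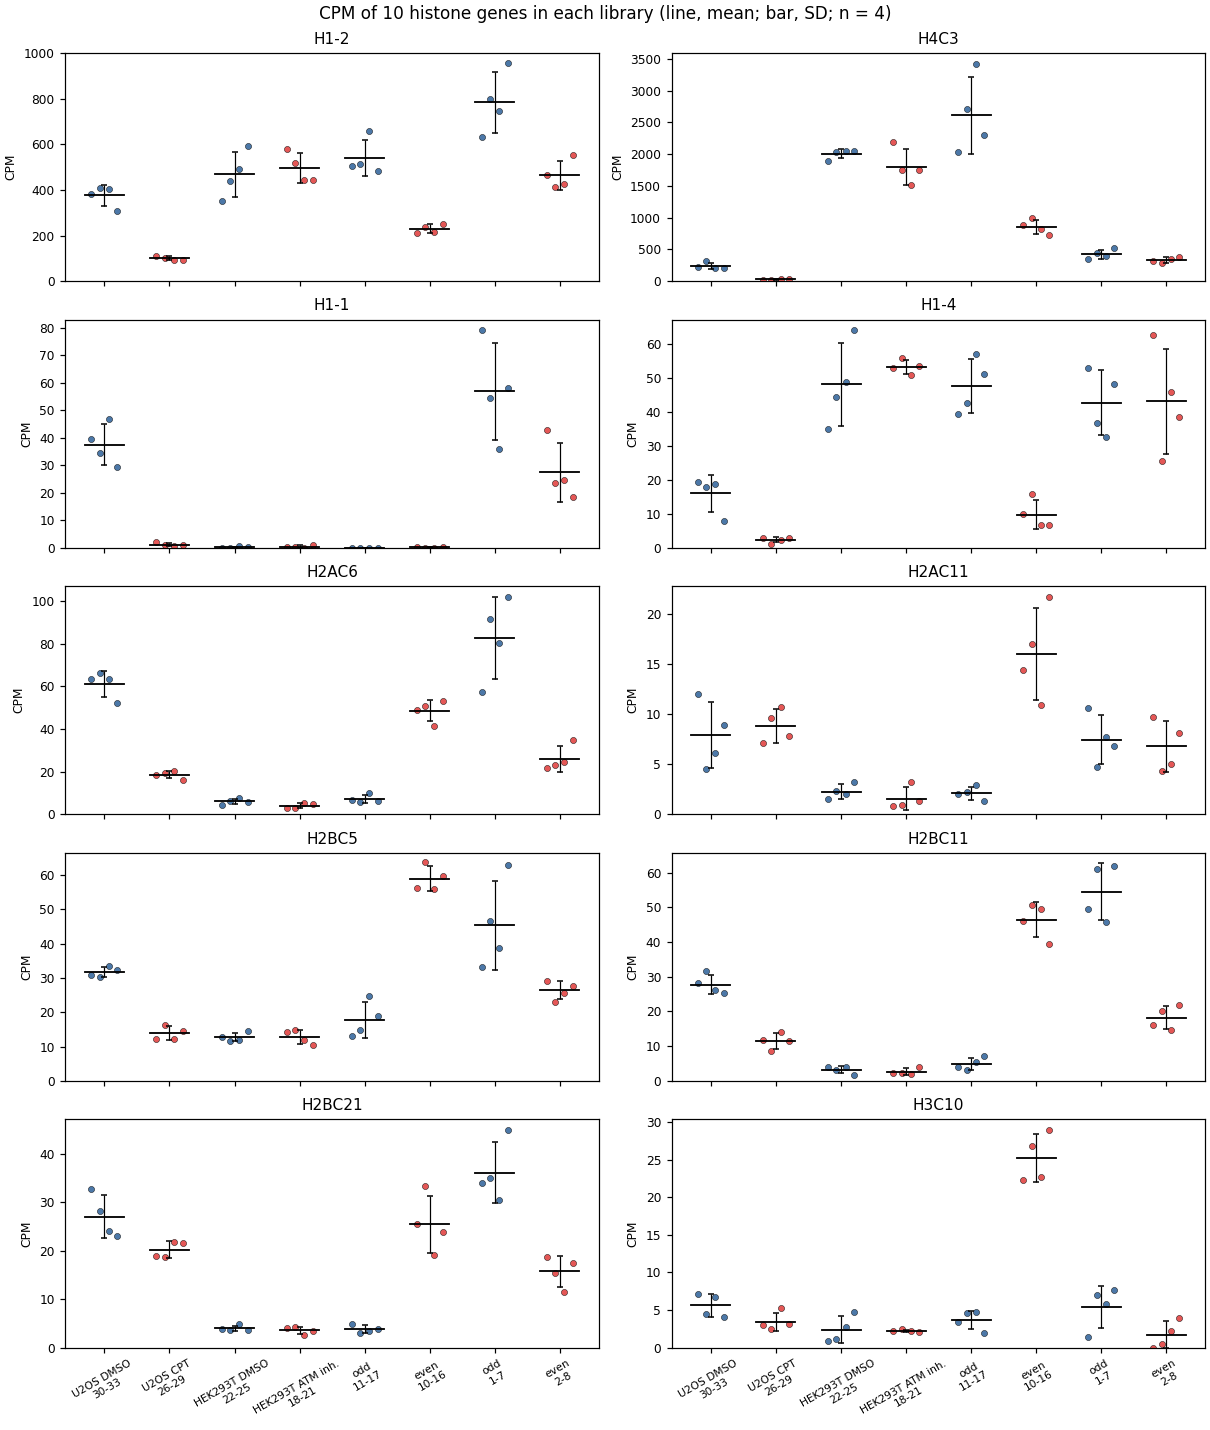
Level in CPM (y axis, linear, from 0) of 10 histone genes in each library (points) of 8 sets (x axis, with library numbers), with the mean (line) and SD (bar). Blue marks DMSO or odd libraries and red the treated or even libraries. In U2OS CPT libraries H1-2 sits between 91.8 and 111 CPM, below all U2OS DMSO libraries, and in even libraries 10 to 16 H2AC6, H2BC11 and H3C10 lie above all odd libraries while H1-2, H1-4 and H4C3 lie below them.

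The ATM inhibitor left histone RNA in HEK293T cells without a change that passed the test. None of 27 tested histone genes was called, 2 had an unadjusted p under 0.05, and the median log2 difference was -0.09, against 0.00 over all 18413 genes. The background was equally empty, with 0% of all genes called higher and 0% lower. Of these 18413 genes, 1019 had an unadjusted p under 0.05, about the share that this threshold gives without any effect. DESeq2 called 0 histone genes and edgeR's likelihood ratio test also 0.

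H4C3 was at 2191, 1744, 1521 and 1755 CPM with the inhibitor and at 1900, 2028, 2044 and 2057 CPM in DMSO, sets that overlap (log2 difference -0.09 ± 0.11, edgeR adjusted p = 0.966). H1-2 was at 580, 518, 443 and 445 against 351, 440, 491 and 590 CPM, which overlap as well (0.15 ± 0.13, edgeR adjusted p = 0.946). The genes furthest from 0 among those over 10 CPM were H1-3 at 0.47 ± 0.20 and H2AC20 at 0.23 ± 0.19, and neither passed. The SE of 0.11 to 0.20 for these genes, and of 0.62 for H4C8, at means of 0.588 and 1.37 CPM, sets what size could be seen. Genes with a signal made up 1.39% to 1.64% of the summed histone CPM with the inhibitor and 1.66% to 1.78% in DMSO. These ranges do not overlap, and no test was run on this share. Of 10 tested genes with a signal, 9 had a log2 difference below 0 (median -0.30). Of 17 without one, 7 did (median 0.18), and none of either group was called.

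Within libraries 10 to 17, histone genes split into a group that was higher and a group that was lower in the even libraries. Of 29 tested genes, 13 were higher, 8 lower and 8 did not pass, against 9.52% of all 19464 genes called higher and 4.45% lower. The median log2 difference was 1.21 over the histone genes and 0.04 over all genes. Of the 10 tested genes with a signal, 8 were higher and 1, H4C8, lower (-1.12 ± 0.39), with a median log2 difference of 2.41. Of the 19 tested without one, 5 were higher (H4C9, H3C4, H3C2, H2BC8 and H2BC12) and 7 lower, with a median of -0.77.

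H2BC11 had the highest log2 difference among the higher genes at 10 CPM or more, below H4C9 (4.11) and H3C4 (3.76) at lower levels. It was at 45.9, 50.6, 49.6 and 39.5 CPM in the even libraries and at 4.04, 3.05, 5.33 and 7.09 CPM in the odd ones. The sets are far apart, with a log2 difference of 3.25 ± 0.20 (SE; edgeR adjusted p = 3.75e-11). H2AC6 was at 48.7, 50.9, 41.6 and 53.0 against 6.74, 5.75, 10.2 and 6.21 CPM (2.74 ± 0.17), and H3C10, the most abundant H3 gene, at 22.4, 26.9, 22.7 and 28.9 against 3.37, 4.57, 4.67 and 1.99 CPM (2.75 ± 0.22). Neither pair of sets overlaps. H2AC11 averaged 15.98 ± 4.6 against 2.11 ± 0.64 CPM (2.91 ± 0.26), H2BC21 25.5 ± 5.9 against 3.76 ± 0.81 (2.71 ± 0.21), H2BC15 12.7 ± 1.4 against 2.89 ± 0.82 (2.11 ± 0.24) and H2BC5 59.0 ± 3.7 against 17.9 ± 5.2 (1.72 ± 0.16).

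The lower group held the linker histones and H4C3. H4C3 was at 878, 994, 822 and 735 CPM in the even libraries and at 2033, 2708, 3426 and 2297 CPM in the odd ones, with no overlap (log2 difference -1.63 ± 0.14, edgeR adjusted p = 7.57e-09). H1-2 was at 213, 239, 215 and 252 against 503, 511, 657 and 484 CPM, with library 15 above the other 3 odd libraries (-1.25 ± 0.12, edgeR adjusted p = 2.28e-08). All 3 tested H1 genes were lower, with H1-4 at 9.71 ± 4.28 against 47.5 ± 8.0 CPM (-2.35 ± 0.21) and H1-3 at 4.396 ± 1.530 against 11.3 ± 2.3 CPM (-1.45 ± 0.26). H2AC20 averaged 6.33 ± 2.96 against 12.8 ± 4.0 CPM in overlapping sets (-1.11 ± 0.28), and it missed the cutoff without library 15 (-0.89) or library 16 (-0.78).

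By family, 7 of 10 tested H2B genes and 3 of 3 H3 genes were higher in the even libraries, while 3 of 3 H1 genes were lower, and H2A and H4 genes were divided. The summed CPM of genes with a signal was 4.65-fold higher in the even libraries (228 to 280 against 46.0 to 73.5 CPM). That of genes without one was 2.86-fold lower (means 1134 against 3239 CPM). Most of that sum came from H4C3 (857 against 2616 CPM) and H1-2 (230 against 539 CPM). Genes with a signal made up 17.5% to 20.2% of the histone sum in even and 1.38% to 1.79% in odd libraries. The share of reads outside annotated genes also differed, at 15.8% to 18.5% against 9.39% to 10.99%. So did the U2OS markers, of which 4 of 6 tested were called higher in the even libraries, with a summed level of 170 to 277 against 65.2 to 73.6 CPM and with COL1A2 at 0 in the odd libraries. The part of either in the histone differences was not tested.

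**Figure D2:**
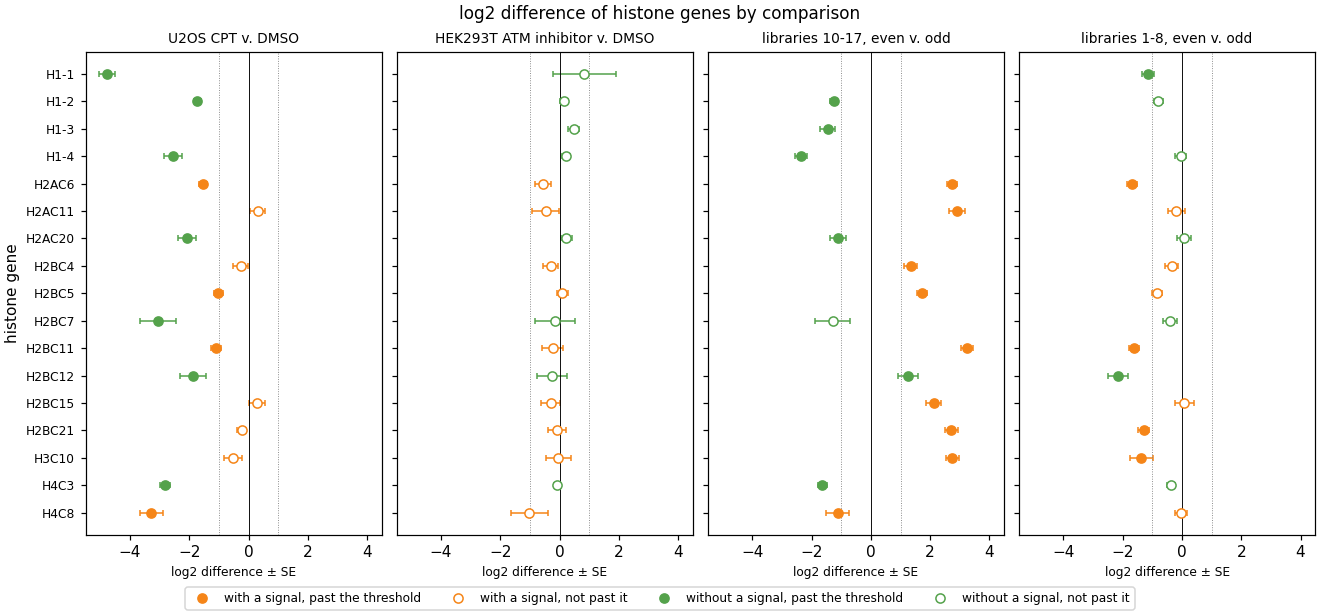
log2 difference (x axis) with its SE for the 17 histone genes that reached 10 CPM in a set (y axis), in 4 comparisons; a gene is absent where it did not pass the count filter. Orange marks genes with an annotated signal and green genes without one, and filled points passed the threshold (dotted lines at -1 and 1). In libraries 10 to 17 the orange points lie at 1.34 to 3.25 except H4C8 at -1.12, while in U2OS cells after CPT no filled point lies above 0.

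A direct test set the U2OS CPT difference against the difference within libraries 10 to 17, in 1 edgeR fit of both. Of 34 tested histone genes, 15 had a lower log2 difference for U2OS CPT than within libraries 10 to 17. The reverse held for 0, against 6.71% lower and 5.15% higher of all 22363 genes. Those 15 include 9 of the 10 tested genes with a signal. The difference of the log2 differences was -4.33 ± 0.26 for H2BC11 (edgeR adjusted p = 1.91e-17), -4.28 ± 0.22 for H2AC6, -3.29 ± 0.38 for H3C10, -2.95 ± 0.26 for H2BC21 and -2.74 ± 0.23 for H2BC5. Of the genes lower in both, H4C3 differed by -1.18 ± 0.22 and H4C8 by -2.19 ± 0.63, while H1-4 did not pass (-0.20 ± 0.39) and H1-2 stayed under the fold cutoff (-0.49 ± 0.17, edgeR adjusted p = 0.0332). For H1-1, which had 0 to 0.306 CPM in libraries 10 to 17, the fitted value is not a bound.

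Within libraries 1 to 8, histone genes were lower in the even libraries or did not pass. Of 26 tested genes, 7 were lower and 0 higher, with a median log2 difference of -0.62, against 0.04 over all 18591 genes, of which 2.44% were called lower and 2.8% higher. H2AC6 was at 21.9, 23.1, 24.3 and 35.1 CPM in the even and 57.2, 91.3, 80.2 and 102 CPM in the odd libraries. The sets do not overlap, and the log2 difference was -1.67 ± 0.17 (SE; edgeR adjusted p = 2.21e-11). H2BC11 averaged 18.3 ± 3.4 against 54.5 ± 8.2 CPM in sets that are also apart (-1.61 ± 0.18), and H2BC21 averaged 15.8 ± 3.2 against 36.1 ± 6.3 CPM (-1.28 ± 0.19).

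H2BC12, at 2.74 ± 0.98 against 11.2 ± 3.0 CPM, had the largest difference (-2.16 ± 0.33), and the H3 genes H3C4 (-2.03 ± 0.47) and H3C10 (-1.37 ± 0.40, in overlapping sets) were lower at means under 6 CPM. H1-1, at 27.4 ± 10.7 against 56.9 ± 17.7 CPM in overlapping sets, was called (-1.16 ± 0.21), but not without library 1 (-0.95) or library 8 (-0.97). H1-2 (-0.79 ± 0.15, edgeR adjusted p = 1.32e-04) and H2BC5 (-0.84 ± 0.17, edgeR adjusted p = 3.26e-04) had an adjusted p under 0.05 but stayed under the fold cutoff. H4C3 (-0.37 ± 0.15), H1-4 (-0.04 ± 0.19), H2AC20 (0.06 ± 0.24) and H4C8 (-0.04 ± 0.20) did not pass. Of the genes tested, 4 of 10 with a signal and 3 of 16 without one were lower, and genes with a signal made up 13.1% to 14.6% of the histone sum in the even and 16.8% to 17.8% in the odd libraries. The U2OS markers summed to 3451 to 4646 CPM in the even and 3109 to 4950 CPM in the odd libraries, with 1 of 6 called higher, and 1 of 5 HEK293T markers was called higher, at sums of 461 to 608 and 562 to 772 CPM. ANXA1, a U2OS marker, was at 258 to 351 CPM in the even and 157 to 190 CPM in the odd libraries, and the part of these markers in the histone differences was not tested.

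Untreated U2OS and HEK293T cells differed in which histone genes they showed. These libraries are the control sets of the comparisons above, so this comparison is not independent of them. Of 28 tested genes, 12 were higher in U2OS DMSO than in HEK293T DMSO and 4 lower, where 21.8% of all 19739 genes were called higher and 18.1% lower. H4C3 was at 203 to 320 CPM in U2OS and 1900 to 2057 CPM in HEK293T cells (log2 difference -2.85 ± 0.12, edgeR adjusted p = 4.19e-20). H1-2 overlapped, at 308 to 409 and 351 to 590 CPM.

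The other linker histones were divided between the lines. H1-1 was at 29.3 to 46.9 CPM in U2OS and 0 to 0.501 CPM in HEK293T cells (7.46 ± 0.35). H1-3 had no count in the 4 U2OS libraries and 7.997 to 14.2 CPM in HEK293T cells, at least 46.8-fold lower in U2OS when the U2OS set is given 3 counts in all. H2AC17 was likewise absent from the U2OS set and at least 9.44-fold lower. H1-4 was lower in U2OS (-1.39 ± 0.19), and among signal-bearing genes H2AC6 (3.54 ± 0.17), H4C8 (3.50 ± 0.35), H2BC11 (3.31 ± 0.21), H2BC21 (2.96 ± 0.20) and H2BC5 (1.54 ± 0.16) were higher. In all, 7 of 10 tested genes with a signal were higher in U2OS and none lower.

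**Figure D3:**
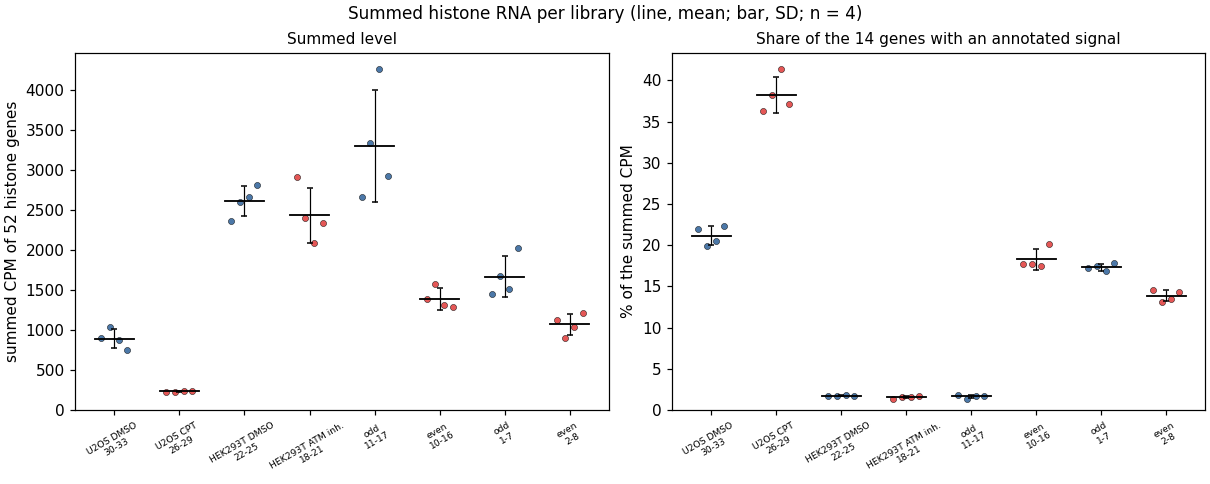
Left, summed CPM of the 52 histone genes in each library (points) by set, with mean and SD; right, the percentage of that sum from the 14 genes with an annotated signal. The sum is lowest in U2OS CPT libraries, at 224 to 240 CPM, and the share is 36.3% to 41.3% there, 17.5% to 20.2% in even libraries 10 to 16 and under 2% in the 3 other sets closer to HEK293T.

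Many H2A and H2B genes stand head to head, and partners did not always pass in the same direction. Transcription of 9 H2A and H2B pairs starts 194 to 248 bases apart in opposite directions. In libraries 10 to 17, H2BC21 was higher (2.71) and its partner H2AC20 lower (-1.11), and after CPT in U2OS cells H2AC20 fell (-2.08) while H2BC21 did not pass (-0.24). H2AC6 fell in U2OS (-1.54) where its partner H2BC4 did not pass (-0.26), and both were higher in even libraries 10 to 16 (2.74 and 1.34). H2AC11 and H2BC11, which both have a signal, were both higher there (2.91 and 3.25). After CPT in U2OS cells, however, H2BC11 fell (-1.09) while H2AC11 did not pass (0.31). In libraries 1 to 8, H2BC11 was lower (-1.61) and H2AC11 again did not pass (-0.19). Of these 6 genes, H2AC20 alone has no annotated signal, and its annotated transcript ends at the stop codon. A link between the signal and differences within pairs was not tested.

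The promoters are shown for that pair and for H1-2. Sequences of RefSeq (GRCh38.p14), 250 bases before to 50 after each start, were found for 47 of the 52 genes. The octamer ATTTGCAT, known as a site for OCT1, was in 44.7% of them and in 1.77% of all 35116 promoters, with 9 of 11 H2A and 11 of 14 H2B promoters but no H1 or H4 promoter. CCAAT was in 87.2% against 34.6%, and TATAAA in 68.1% against 11.5%. Both strands were searched, each motif separately, and the letters of 2 motifs may overlap. Promoters of divergent partners overlap, as those of H2BC21 and H2AC20 do, so the same octamer can count for both genes. H3C4 and H2AC7 have an identical promoter sequence here. The H2BC21 promoter (chr1:149886633-149886932, minus strand) reads through the start of H2AC20 on the other strand, and the H1-2 promoter (chr6:26056421-26056720, minus strand) holds CCAAT but neither other motif. Capitals mark these motifs on either strand.
H2BC21 promoter: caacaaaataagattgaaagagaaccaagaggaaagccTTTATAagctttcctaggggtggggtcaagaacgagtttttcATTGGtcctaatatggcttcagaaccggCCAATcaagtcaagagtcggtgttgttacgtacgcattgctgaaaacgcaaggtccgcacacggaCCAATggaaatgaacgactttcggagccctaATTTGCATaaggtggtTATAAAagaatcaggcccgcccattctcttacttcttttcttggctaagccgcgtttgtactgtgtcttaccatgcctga
H1-2 promoter: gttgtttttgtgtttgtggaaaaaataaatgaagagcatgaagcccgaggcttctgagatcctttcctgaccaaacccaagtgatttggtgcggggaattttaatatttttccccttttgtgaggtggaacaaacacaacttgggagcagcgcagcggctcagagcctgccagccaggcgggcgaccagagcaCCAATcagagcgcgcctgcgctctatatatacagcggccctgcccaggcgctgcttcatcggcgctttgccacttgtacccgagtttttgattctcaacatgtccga

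Related genes were set beside the histone genes in 5 lists. Of 12 genes for histone mRNA synthesis and 3′ processing, 0 passed the threshold after CPT in U2OS cells (median log2 difference -0.20), and 4 had an adjusted p under 0.05 below the fold cutoff. These include SLBP, which binds the stem-loop (-0.46 ± 0.16, edgeR adjusted p = 0.0227), and NPAT, the cyclin E target that activates histone genes (-0.38 ± 0.15, edgeR adjusted p = 0.0431). In libraries 10 to 17 only LSM11, part of the U7 particle that cuts histone pre-mRNA, passed (-1.08 ± 0.15). SLBP stayed under the cutoff there at 0.38 ± 0.14 (edgeR adjusted p = 0.0372). Within libraries 1 to 8, 0 of the 12 passed.

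For these lists, the shares of all genes called lower and higher were 5.5% and 7.97% in U2OS cells after CPT. They were 4.45% and 9.52% in libraries 10 to 17, and 2.44% and 2.8% in libraries 1 to 8. Of 10 tested genes listed as replication-independent histones, 6 fell in U2OS cells after CPT, with a median of -1.13. H2AX, the variant phosphorylated at DNA breaks, fell from 74.7 ± 11.3 to 26.4 ± 7.0 CPM (-1.32 ± 0.15). In libraries 10 to 17, 1 of 12 was lower and 0 higher, and in libraries 1 to 8, 3 of 11 were lower. Of 23 S phase genes, 8 fell in U2OS cells (median -0.75), among them the replicative helicase subunits MCM2 (-1.39 ± 0.16), MCM6 (-1.80 ± 0.13) and MCM7 (-1.48 ± 0.13), while PCNA stayed at 0.00 ± 0.13. In libraries 10 to 17, 1 of the 23, CCNE2, was higher (1.07 ± 0.17) and 0 lower, and in libraries 1 to 8 none passed. Of 14 histone chaperones, 0 passed in U2OS cells and in libraries 10 to 17, and 1, CHAF1B, was higher in even libraries 2 to 8 (1.18 ± 0.30). Of 18 other clustered histone genes, 2 were tested in U2OS cells and 1 fell, 6 were tested in libraries 10 to 17, where 2 were higher and 1 lower, and 2 in libraries 1 to 8, where 0 passed. In HEK293T cells with the ATM inhibitor no gene of these 5 lists passed. Between U2OS and HEK293T DMSO libraries, 1 gene of the synthesis and processing list was higher and 2 lower, with 2 and 1 replication-independent histones, 2 and 2 S phase genes, 0 and 1 chaperones, and 1 and 2 other clustered genes. The shares over all genes there, 21.8% higher and 18.1% lower, are given above, and the shares of the 12, 12, 23 and 14 tested genes of the first 4 lists were at or under them.

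Over libraries 18 to 33, the genes whose levels ranked most like the summed histone CPM were RPS15P4 (Spearman rho 0.971), BAP1 (0.968), ZNF629 (0.965), CIZ1 (0.965) and CEP57L1 (0.962), out of 9618 genes at 10 CPM or more. These 16 libraries come from 2 cell lines whose histone sums do not overlap.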

How the data were processed

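Per the study's methods, the authors deposited raw UMI counts per gene that came from version 2.3.1 of Lexogen's pipeline for UMI-tagged forward QuantSeq reads, with 4 biological repeats per comparison. The genome build and annotation are not given in the sources used here. The 5 summary rows and 92 spike-in rows were left out. Reads outside annotated genes were 9.39% to 39.9% per library and ambiguous reads 0.631% to 1.51%. CPM was computed from counts on genes (floor 3 counts, counting error only). A gene needed over 1 count in 2 or more of the libraries compared, and these genes were fitted in edgeR 4.0.16 (R 4.3.3; TMM, quasi-likelihood test, Benjamini-Hochberg over all genes tested) and called at an absolute log2 difference over 1 and adjusted p under 0.05. The script was tested on simulated counts.

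Alternatives were the likelihood ratio test, DESeq2 1.42.0, RLE scaling, other count filters, no fold cutoff, all libraries in 1 fit, groups by label and leaving out each library. Full statistics go to the most abundant pair of genes of each family and, per comparison, to at most 6 called genes in each direction at 10 CPM or more. Others were named after their values were seen. The histone genes and the lists (synthesis and 3′ processing, replication-independent histones, chaperones, S phase, other clustered histones, cell line markers) were chosen with earlier results of these data known. Transcript ends come from GENCODE 29 and promoters from RefSeq. The values of 1 gene of these lists are not reported here.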

Additional observations from a re-analysis of the deposited data

Results flagged for a closer look

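Of 64 sets of 4 libraries checked for 16 histone genes, 3 held a library far from the others, where chance gives about 1 in 20. H1-2 was at 657 CPM in library 15 against 484 to 511 CPM in the other odd libraries from 11 to 17. H1-4 was at 7.93 CPM in U2OS DMSO library 33 against 17.9 to 19.5 CPM in the other 3, and H4C8 at 23.7 CPM in library 31 against 9.96 to 10.5 CPM.

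The U2OS CPT difference was below that within libraries 10 to 17 (even against odd) for 15 histone genes in the edgeR test of the difference itself, called at an absolute difference over 1 and an adjusted p under 0.05. The differences on the log2 scale were -4.28 for H2AC6 and -2.61 for H2AC11 among H2A genes. Among H2B genes they were -1.60 for H2BC4, -2.74 for H2BC5, -4.33 for H2BC11, -3.15 for H2BC12, -1.82 for H2BC15 and -2.95 for H2BC21. H3 genes gave -5.78 for H3C1, -4.01 for H3C4 and -3.29 for H3C10, and H4 genes -1.18 for H4C3, -2.19 for H4C8 and -3.90 for H4C9. H1-1 gave -7.02. The fitted values of H1-1 and H3C1 are no bounds, since H1-1 had no count in odd libraries 11 to 17 and H3C1 none after CPT.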

How the results depend on the processing

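Counts of called histone genes stayed within 1.5 times the reported one except under 3 settings. With filterByExpr, 9 of 14 tested genes were called in U2OS cells after CPT, against 14 of 24. Grouped by label, 7 genes (5 higher, 2 lower) were called for U2OS ATM KO against WT, where even and odd libraries 10 to 17 gave 21, and 1 for HEK293T CPT against DMSO, where libraries 1 to 8 gave 7. In that last grouping the 1 called gene was H4C3 (-1.81), which was not called in libraries 1 to 8, and of the 7 called there H2BC21 (0.0151) and H1-1 (0.58) changed sign. Genes not called there changed sign too, such as H2BC5 (0.07) and H4C8 (1.51). These groups mix libraries that resemble different lines. Leaving out 1 library gave 11 to 14 called genes for U2OS CPT, 16 to 20 for libraries 10 to 17, 6 to 7 for libraries 1 to 8, 0 to 0 for the ATM inhibitor, 16 to 17 between lines and 14 to 16 for the difference of differences. Over all genes, filterByExpr called 1652 for U2OS CPT, 1461 for libraries 10 to 17, 644 for libraries 1 to 8 and 5090 between lines, against 2569, 2718, 974 and 7872. The grouping by label called 631 in libraries 10 to 17, and the likelihood ratio test and the fit without a filter called 2 each for the ATM inhibitor, against 0. The inhibitor fit called 14 without library 21 and 1 without library 18, in the fit of all libraries or with no fold cutoff. Without that cutoff the other comparisons called 6091 (U2OS CPT), 6785 (10 to 17), 2415 (1 to 8), 12256 (lines) and 4544 against 2651 (difference of differences). Of 687 values for 44 named results, 666 kept direction and call, 19 lost the call and 2 reversed. RLE scaling moved the median of all genes by at most 0.04 (log2). Depth limits genes of a few counts: H3C1 in U2OS cells and H3C2 in libraries 10 to 17 were called from at most 4 and 3 counts a library. Bounds against a set at 0 use 3 counts over the set. No paired analysis was run, because no labels give the compared groups shared replicate numbers. Pairing by neighbouring library number was not tried.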
